A study of Mus musculus with 6 samples.

Results

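Transcripts of the proteasome, the protease that breaks down ubiquitin-tagged proteins, were compared between mouse leukaemia cells with and without Prmt6, the gene of an arginine methyltransferase that acts on histones and other proteins. The genes were those whose symbol starts with Psm, followed by a letter from a to g and a digit. This rule uses no measured value, but it was set with earlier results of these data known. It gave 54 of the 30037 genes named in the expression table. By role, 48 of these are proteasome genes: 7 alpha and 7 constitutive beta subunits of the 20S core, 5 genes of the immunoproteasome and its PA28αβ activator, 17 subunits of the 19S cap (6 ATPases and 11 non-ATPases), 7 assembly chaperones, 3 other activators or inhibitors, and 2 core subunits of restricted tissues. The other 6 are 4 pseudogenes, Psmc3ip (a meiotic recombination factor that shares the prefix) and Psme2b (a copy of Psme2 by its symbol).

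The 6 libraries were poly(A) RNA of L-GMP cells, leukaemic cells that resemble granulocyte-macrophage progenitors, taken by cell sorting out of the marrow of AML (acute myeloid leukaemia) mice aged 8 to 10 weeks. There were 3 libraries from wild-type (WT) leukaemia and 3 from Prmt6-/- leukaemia, and both groups were leukaemic. The labels do not name the oncogene that drove the leukaemia, the design of the Prmt6 allele, or whether the libraries of 1 genotype came from separate mice, so each p-value measures only the spread between these libraries.

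The 20S core is a barrel of stacked rings: outer alpha rings gate the entrance, and inner beta rings hold the peptidase sites of Psmb5 (chymotrypsin-like), Psmb6 (caspase-like) and Psmb7 (trypsin-like). The 19S cap binds ubiquitin chains, removes them and unfolds the substrate with a ring of ATPases. Interferon and haematopoietic identity favour the immunoproteasome, in which Psmb8, Psmb9 and Psmb10 take the places of Psmb5, Psmb6 and Psmb7. Psme1 and Psme2 form PA28αβ, a cap-like activator that opens the core without ATP; these inducible parts are best known for making peptides for MHC class I molecules.

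Values are the deposited log2 values, which rise with transcript abundance; differences are Prmt6-/- minus WT on that scale. "Called" means an adjusted p under 0.05 in limma's moderated test, with Benjamini-Hochberg adjustment over the 15454 genes that reached a value of 1 in at least 3 libraries. Every adjusted p below is of that kind unless the authors' test is named. The values are not known to be scaled for gene length, so levels of different genes are not ranked against each other. Where genes are grouped by level, summed or called low, only the deposited values are meant. Prmt6 stood at 7.82, 7.60 and 7.41 in WT libraries 1 to 3 and at 5.42, 5.46 and 5.48 in the Prmt6-/- libraries, a difference of -2.16 (adjusted p = 3.57e-06). The authors' deposited table gives -7.66 for the same gene, so the log2 values can understate differences, above all of genes at low levels. Strongly expressed genes can also differ less on this scale than in the authors' fold changes. Psmc3 gave -0.85 against -0.94 and Psme1 -0.61 against -0.69. Linear falls below are taken from the deposited log2 values. Library medians lay between 7.72 and 7.75, and libraries correlated at 0.99873 to 0.99922 within a genotype and at 0.99333 to 0.99607 between genotypes (Pearson r across genes). All 7 L-GMP markers (Kit, Cd34, Fcgr3, Fcgr2b, Hoxa9, Meis1 and Mpo) were present, but not all were level: Fcgr2b fell by 0.88 (adjusted p = 5.07e-04) and Meis1 rose by 0.49 (adjusted p = 0.00179). Mpo, not called, varied widely, with 15.27, 15.19 and 16.29 in the WT and 13.34, 14.37 and 15.72 in the Prmt6-/- libraries. The part of these markers in the results below was not tested.

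Of the 54 genes 51 were tested, since 3 pseudogenes (Psmb5-ps, Psmb6-ps and Psmb6-ps2) stayed under the minimum value. In the Prmt6-/- cells 17 fell and 4 rose, and 30 were not called; the 21 called were 41.2% of those tested. Across all genes tested 33.0% were called, 18.0% as lower and 15.0% as higher. Most proteasome genes are strongly expressed, and among the 2449 tested genes within the WT range of the constitutive core (10.53 to 13.49) 49.2% were called, 36% as lower and 13.3% as higher. The share of proteasome genes called was not above that of genes at their level. Their median difference was -0.09, against 0.01 over all genes and -0.08 over the genes at the level of the core. After quantile normalization 14 rose and 14 fell, with a median of 0.01, and after intensity-dependent centring 9 rose and 16 fell, so the balance of directions in the family rests on the scaling. The 4 falls among the inducible genes did not: all were called as lower under both scalings.

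Of the 5 inducible genes 4 were called as lower in the Prmt6-/- cells. Psmb8, Psmb10, Psme1 and Psme2 fell, by 0.39 to 0.62, and Psmb9 was not called. The median difference of the 5 was -0.47. Called as lower were also 18.0% of all genes tested and 36% of those within the WT range of the constitutive core. The 4 calls were kept in every one of 14 alternative analyses, and Psmb9 was called in 0 of them. In bulk RNA, less transcript per cell and fewer cells that carry the transcript cannot be told apart.

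Psmb8, the inducible chymotrypsin-like subunit, read 12.53, 12.54 and 12.54 in WT libraries 1 to 3 and 12.13, 12.18 and 12.14 in the Prmt6-/- libraries. The genotypes did not overlap, and the difference was -0.39 (95% interval -0.48 to -0.29, adjusted p = 2.20e-04), a linear value that fell by 23.5%. The spread within either genotype was far smaller than this gap.

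Psmb10, the inducible trypsin-like subunit, read 10.91, 10.96 and 10.97 in the WT and 10.45, 10.51 and 10.48 in the Prmt6-/- libraries. All Prmt6-/- values lay below all WT values. Psmb10 fell by 0.47 (95% interval -0.58 to -0.35, adjusted p = 1.96e-04), and its linear value fell by 27.6%.

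Psmb9, the inducible caspase-like subunit, read 9.22, 9.12 and 9.29 in the WT and 8.83, 9.07 and 9.13 in the Prmt6-/- libraries. Knockout library 1 lay lowest, and knockout library 3 lay above WT library 2, so the genotypes overlapped. The difference of -0.20 was not called (95% interval -0.40 to -0.00, adjusted p = 0.114). It ranged from -0.26 to -0.11 as each library was left out, and was smallest without knockout library 1. The interval includes falls as large as that of Psmb8.

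The activator genes moved most within the group. Psme1 read 11.59, 11.59 and 11.73 in the WT and 11.02, 11.03 and 11.03 in the Prmt6-/- libraries, which were nearly identical to each other. It fell by 0.61 (95% interval -0.74 to -0.49, adjusted p = 7.96e-05). Psme2, which encodes the other subunit of the PA28αβ ring, read 11.53, 11.66 and 11.76 in the WT and 10.90, 11.04 and 11.15 in the Prmt6-/- libraries. Psme2 fell by 0.62 (95% interval -0.80 to -0.44, adjusted p = 4.93e-04). For both genes no knockout value reached a WT value. Psme2b, the copy-like gene, was low (5.13, 5.09 and 5.19 against 4.87, 4.83 and 5.03) and fell by 0.23 (adjusted p = 0.0232). Whether its reads came from Psme2, or from the overlapping gene 9930111J21Rik1, is uncertain. Its call was lost without WT library 1 (adjusted p = 0.0586) or 3 (0.0677) and without knockout library 1 (0.0788) or 2 (0.0895), within a range of 0.00846 to 0.0895 over all alternatives.

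**Figure D1:**
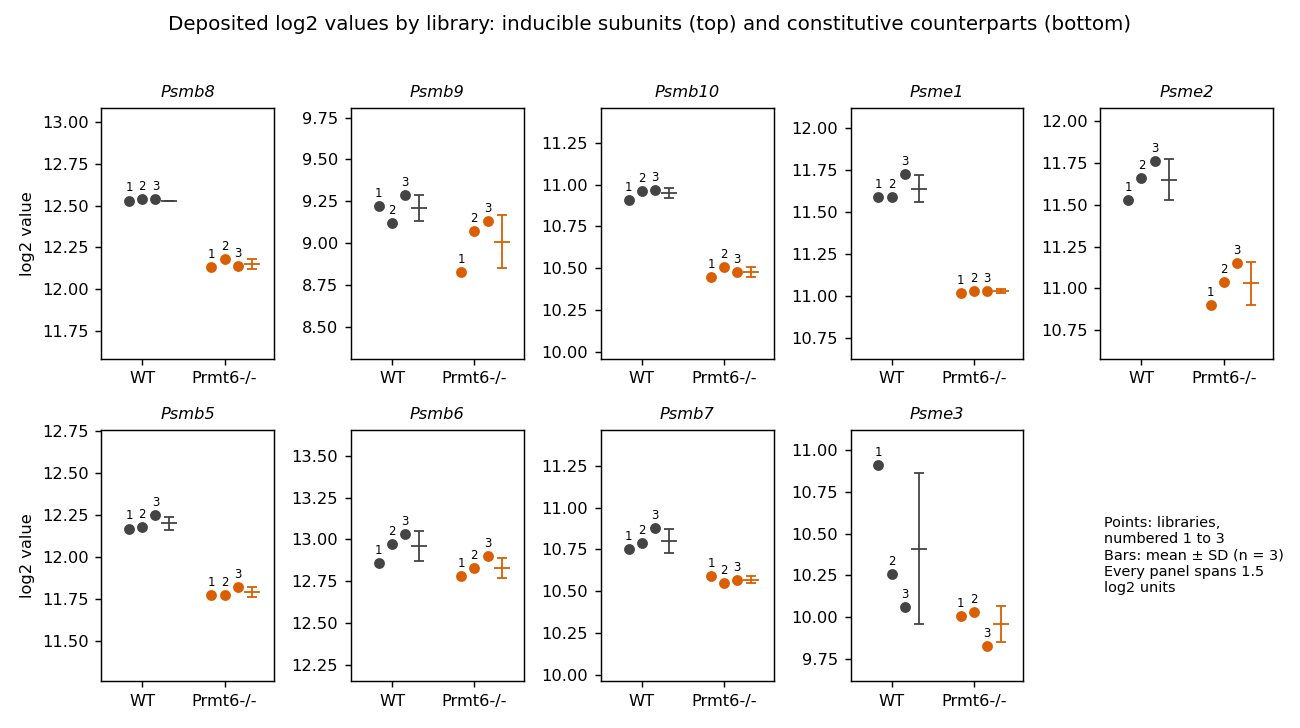
Deposited log2 values (vertical axis, each panel spanning 1.5 log2 units) of inducible genes (top row) and of Psmb5, Psmb6, Psmb7 and Psme3 (bottom row); points are libraries numbered 1 to 3, and bars show mean ± SD (n = 3). The genotypes are apart for Psmb8, Psmb10, Psme1, Psme2, Psmb5, Psmb7 and, narrowly, Psme3, and overlap for Psmb9 and Psmb6. The wide WT bar of Psme3 comes from WT library 1 at 10.91.

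PA28γ, encoded by Psme3, is the nuclear relative of PA28αβ and is not interferon-driven. Psme3 read 10.91, 10.26 and 10.06 in the WT and 10.01, 10.03 and 9.83 in the Prmt6-/- libraries. WT library 1 stood apart from all other values. The difference was -0.45 (adjusted p = 0.0913, not called). Without WT library 1 it was -0.20 (adjusted p = 0.136), and without WT library 3 it was -0.63 and passed (0.0251), as it also did with the replicate number as a block (0.0353); over all alternatives the adjusted p ranged from 0.0251 to 0.22. The size of this difference rests on 1 library.

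The constitutive peptidase subunits did not move alike. Psmb5 read 12.17, 12.18 and 12.25 in the WT and 11.77, 11.77 and 11.82 in the Prmt6-/- libraries, without overlap. Psmb5 fell by 0.42 (95% interval -0.52 to -0.31, adjusted p = 2.49e-04), and so its inducible partner Psmb8 and it fell by similar amounts. Psmb7 read 10.75, 10.79 and 10.88 against 10.59, 10.55 and 10.57, again without overlap. It fell by 0.23 (95% interval -0.36 to -0.11, adjusted p = 0.0103). Psmb6 read 12.86, 12.97 and 13.03 against 12.78, 12.83 and 12.90; knockout library 3 exceeded WT library 1. Its difference of -0.12 was not called (95% interval -0.25 to 0.00, adjusted p = 0.13) and turned to 0.01 after quantile normalization.

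Incorporation of an inducible subunit displaces its constitutive partner, so the log2 value of the inducible gene minus that of the partner was taken within each library. As a score over chosen genes it carries no test. For Psmb8 minus Psmb5 it was 0.35, 0.36 and 0.28 in the WT and 0.36, 0.41 and 0.32 in the Prmt6-/- libraries, a change of 0.03. These groups overlapped: both genes stood lower to a like extent. Psmb9 minus Psmb6 was -3.65, -3.85 and -3.75 in the WT and -3.95, -3.76 and -3.77 in the Prmt6-/- libraries. The change was -0.07, the groups overlapped, and knockout library 1 alone lay below all WT libraries. Psmb10 minus Psmb7 was 0.16, 0.17 and 0.09 in the WT and -0.15, -0.04 and -0.09 in the Prmt6-/- libraries. Only in that pair were the genotypes apart, with a change of -0.23 that stayed between -0.26 and -0.20 as each library was left out.

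**Figure D2:**
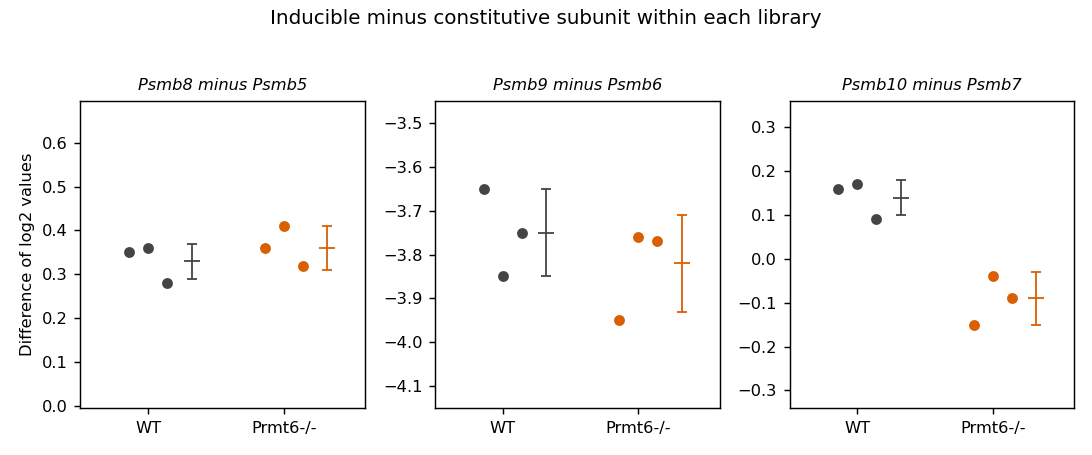
Log2 value of the inducible minus that of the constitutive subunit (vertical axis) in each library for the 3 catalytic pairs; points are libraries, bars mean ± SD (n = 3), and the panels have different vertical positions but equal spans. The values overlap between genotypes for Psmb8 and Psmb5 and for Psmb9 and Psmb6, and lie lower in all Prmt6-/- libraries for Psmb10 and Psmb7.

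Among the 7 alpha subunits, which form the gated outer rings, 4 fell and none rose, so 57.1% were called. Of all genes tested 33.0% were called, 18.0% as lower. Of those within the WT range of the constitutive core 49.2% were called, 36% as lower. Psma1 read 12.81, 12.84 and 12.73 in the WT and 12.30, 12.32 and 12.28 in the Prmt6-/- libraries. The knockout values were tightly grouped below the WT, and Psma1 fell by 0.50 (95% interval -0.60 to -0.39, adjusted p = 9.63e-05). Psma2 (11.64, 11.73 and 11.74 against 11.33, 11.43 and 11.44) fell by 0.30, with an adjusted p of 0.00276. Psma6 (12.05, 11.97 and 12.04 against 11.66, 11.78 and 11.81) fell by 0.27, with an adjusted p of 0.00639. Neither overlapped between genotypes. Psma4 (11.73, 11.76 and 11.82 against 11.57, 11.60 and 11.61) fell by 0.17, with an adjusted p of 0.0211. That call was lost after quantile normalization (0.259) and intensity-dependent centring (0.0643), and without WT library 2 (0.0568) or 3 (0.0609) or knockout library 1 (0.0574) or 2 (0.0629); the range over all alternatives was 0.00923 to 0.259. Psma3 at -0.09, Psma5 at 0.13 and Psma7 at 0.13 were not called. Psma5 and Psma7 passed as higher after quantile normalization and after intensity-dependent centring.

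Of the 4 beta subunits without a peptidase site, none was called. Psmb1 differed by -0.14 (adjusted p = 0.0972) and passed as lower without WT library 1 (0.0246). Psmb3, the nearest of them to a rise, read 12.65, 12.81 and 12.69 against 12.86, 12.88 and 12.85, a difference of 0.15 (adjusted p = 0.0543). It was called in 6 of 14 alternatives, including the fit without WT library 2 (0.0271). Psmb2 at 0.00 and Psmb4 at 0.04 overlapped between the genotypes. Counted together, the 14 constitutive core genes gave 6 falls and 0 rises with a median of -0.13. The share called was 42.9%, against 49.2% of all genes within their WT range (36% lower, 13.3% higher). Quantile normalization gave 5 falls and 4 rises, and intensity-dependent centring 5 falls and 3 rises.

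The tissue-restricted core genes were at low levels. The testis subunit Psma8 stood between 2.69 and 3.06 and the thymus subunit Psmb11 between 4.79 and 4.98 over the 6 libraries. Neither was called (adjusted p = 0.222 and 0.202), although the authors' deposited table calls Psma8 as lower with a log2 fold change of -3.91 (adjusted p = 0.0272). WT library 3 at 3.06 was the only Psma8 value above 2.73.

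The 19S cap held the largest differences of the family. In its ATPase ring, which unfolds substrates, Psmc3 read 12.38, 12.49 and 12.48 in the WT and 11.53, 11.45 and 11.80 in the Prmt6-/- libraries. The genotypes were well apart, and Psmc3 fell by 0.85 (95% interval -1.05 to -0.66, adjusted p = 1.33e-04), a linear value that fell by 44.7%. Psmc6 (11.56, 11.67 and 11.73 against 11.30, 11.49 and 11.41) fell by 0.25, with an adjusted p of 0.0176. The Psmc6 call was lost after quantile normalization (0.0691) and without WT library 2 (0.0587) or 3 (0.0549) or knockout library 1 (0.0574), in a range of 0.00325 to 0.0691. The other 4 ATPase genes, Psmc1, Psmc2, Psmc4 and Psmc5, differed by -0.10 to 0.11 and were not called.

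Psmd14 encodes the metalloprotease that cuts ubiquitin chains off the substrate as it enters the cap. It read 12.50, 12.58 and 12.63 in the WT and 11.68, 11.74 and 11.91 in the Prmt6-/- libraries, and fell by 0.79 (95% interval -0.95 to -0.64, adjusted p = 6.27e-05). This gap was several times the spread within either genotype. Its inactive partner in the cap, Psmd7, moved the other way: the gene read 12.17, 12.31 and 12.33 against 12.48, 12.43 and 12.45 and rose by 0.19 (adjusted p = 0.0264). The Psmd7 call was lost without WT library 1 (0.0695) and without knockout library 1 (0.0757), 2 (0.0642) or 3 (0.061), in a range of 0.00201 to 0.0757. Psmd8, a subunit of the lid, read 12.30, 12.46 and 12.42 against 11.95, 11.98 and 12.06. The genotypes were apart, and Psmd8 fell by 0.40 (95% interval -0.52 to -0.27, adjusted p = 8.40e-04).

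Psmd1 and Psmd2 encode the large scaffold subunits that receive ubiquitin-like domains and shuttle factors. Psmd1 read 12.14, 12.14 and 12.16 against 12.38, 12.36 and 12.30 and rose by 0.20 (95% interval 0.10 to 0.30, adjusted p = 0.00869). Psmd2 read 12.51, 12.54 and 12.58 against 12.68, 12.75 and 12.72 and rose by 0.17 (adjusted p = 0.0168). Both were higher in 3 of 3 knockout libraries. The Psmd2 call was lost without WT library 2 (0.0563) or knockout library 2 (0.0753), in a range of 6.85e-04 to 0.0753. The other 6 non-ATPase genes, among them the ubiquitin receptor gene Psmd4, differed by -0.12 to 0.09 and were not called. Over the 17 cap genes 4 fell and 3 rose, with a median of -0.03, whereas after quantile normalization 3 fell and 8 rose. In the main fit 41.2% of the cap genes were called, against 49.2% of genes within the WT range of the constitutive core.

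**Figure D3:**
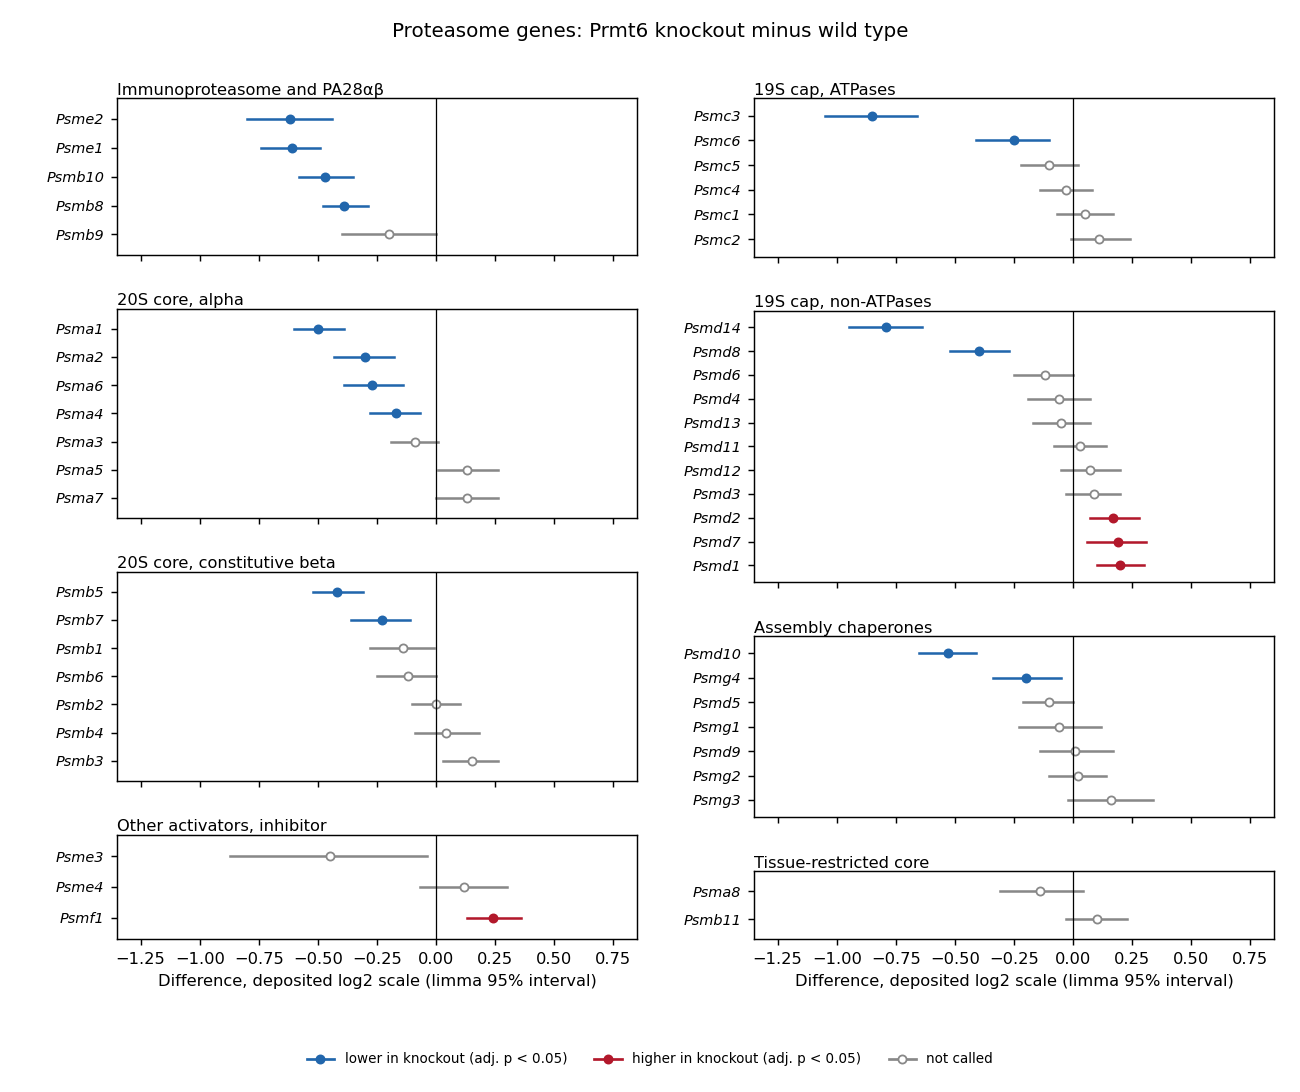
Difference Prmt6-/- minus WT on the deposited log2 scale (horizontal axis) for the 48 proteasome genes by role; points are the differences, bars limma 95% intervals, and filled points were called (blue lower, red higher). Psmc3 at -0.85 and Psmd14 at -0.79 lie farthest to the left, 4 of the 5 inducible genes are called as lower, and the few rises stay under 0.25; the number of rises grows to 14 of 51 genes after quantile normalization.

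Assembly chaperones guide the rings into place and are not part of the finished particle. Psmd10 (gankyrin), which holds an ATPase during cap assembly and is also known as an oncoprotein, read 10.05, 10.00 and 10.06 in the WT and 9.46, 9.50 and 9.55 in the Prmt6-/- libraries. Psmd10 fell by 0.53 (95% interval -0.65 to -0.41, adjusted p = 1.47e-04), with no overlap. Psmg4, a chaperone of the alpha ring, read 9.10, 9.11 and 9.14 against 8.91, 9.01 and 8.85 and fell by 0.20 (adjusted p = 0.0404). Psmg4 lost its call in 9 of 14 alternatives, where the adjusted p over all of them ranged from 0.0224 to 0.119; among these were the fits without WT library 1 (0.0746), 2 (0.0941) or 3 (0.0904) and without knockout library 1 (0.0988) or 3 (0.119). The other chaperones, Psmg1, Psmg2, Psmg3, Psmd5 and Psmd9, differed by -0.10 to 0.16 and were not called. The maturation factor Pomp, outside the symbol rule, stood at 11.42 to 11.47 in the WT and at 11.37 to 11.46 in the Prmt6-/- libraries (difference -0.02, adjusted p = 0.757).

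Psmf1 encodes PI31, first described as an inhibitor of the core. It read 10.19, 10.20 and 10.17 against 10.46, 10.44 and 10.40 and rose by 0.24 (95% interval 0.13 to 0.36, adjusted p = 0.00618). Every knockout value lay above every WT value, and the call was kept in all alternatives. Psme4, whose product PA200 caps proteasomes in the nucleus, differed by 0.12 (adjusted p = 0.305). Psmc3ip differed by 0.14 (adjusted p = 0.0845), and the pseudogene Psmb7-ps2 lay between 1.59 and 1.66 in all libraries.

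Counted by overlap alone, the genotypes were apart for 33 of the 51 genes, 22 with the knockout libraries lower and 11 higher. Over all 15454 genes tested they were apart for 7318 (47.4%), 3766 with the knockout lower and 3552 higher. That share was not taken among genes at the level of the family. The count is therefore not read as a result about the family. The authors' deposited test called 22 of the 53 genes of the family for which it gives a fold change, against 21.7% of 22105 genes. Those 22105 include genes under the minimum value used for limma, and no share was taken at the level of the family. Both tests called 20 genes of the family. Psma8 and Psmb3 were called only by the authors' test and Psmg4 only by limma. In the authors' deposited table the log2 fold changes of Psmb8, Psmb9, Psmb10, Psme1 and Psme2 were -0.43, -0.26, -0.54, -0.69 and -0.70.

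Several of these genes sit close together or have exons that overlap the span of another gene (GENCODE annotation, GRCm38). Psmb9 (chr17:34181987-34187764, minus strand) and Tap1 (chr17:34187553-34197225, plus strand) overlap by 212 bases at their starts. Psmb8 (chr17:34197721-34201454) begins 495 bases past Tap1, followed by Tap2 (chr17:34203527-34216321). Tap1 and Tap2 encode the transporter that carries proteasome products into the endoplasmic reticulum. Tap2 read 12.04, 11.93 and 11.99 against 11.54, 11.78 and 11.73 and fell by 0.30 (adjusted p = 0.00895). Tap1 read 10.48, 10.32 and 10.24 against 10.03, 10.21 and 10.11, a fall of 0.23 (adjusted p = 0.0438). The Tap1 call was lost in 9 of 14 alternatives, among them those without WT library 1 (0.129) or 2 (0.0832) or knockout library 1 (0.136) or 3 (0.1). Tap1, Tap2 and, below, Irf1 were singled out after their values were seen. Psme1 (chr14:55578123-55581529) and Psme2 (chr14:55587441-55591113) are neighbours, 5911 bases apart. Exons of Psmc3, Psme1, Psmb7, Psmb9 and Psma4 overlap the span of a coding gene on the other strand, namely Slc39a13, Emc9, Nek6, Tap1 and AY074887. Whether they overlap exons of that gene was not checked. No source used here gives the strand setting, so reads of those pairs may not be fully told apart. Slc39a13, Emc9 and Tap1 fell and Nek6 rose, while Psmb9, the partner of Tap1, was not called. Exons of Psmd13, Psmd5 and Psmc3ip, none of them called, likewise overlap the spans of Sirt3, Cutal and Mlx on the other strand. Sirt3 fell, and Cutal and Mlx were not called. Psmg3, not called, overlaps Gm26938 on its own strand, which was not tested. Psmd1, which rose, overlaps Htr2b on the other strand and Gm21972 on its own. Psme2b overlaps Gm12185 and 9930111J21Rik1 on its own strand, of which the latter fell. Htr2b, Gm12185 and AY074887 were not called, and Gm21972 was not tested. Of the genes on chromosome 3, where Prmt6 lies, Psma5 is 2.0 Mb, Psmd4 15.2 Mb and Psmb4 15.4 Mb from it, and none of these was called.

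Promoter letters were read because interferon and the transcription factor Nrf1 (Nfe2l1) control the inducible and constitutive genes, through interferon response elements or STAT sites and through antioxidant response elements. RefSeq windows from 250 bases before to 50 bases after a gene's start (GRCm38.p6) held 40 of the 48 proteasome genes. Searched on both strands, the core of an interferon response element (GAAA and GAAA separated by 2 bases) was present in 3.44% of all 32851 windows, in 1 of the 5 inducible genes (Psme1) and in 4 of the 35 others (Psmb3, Psmd4, Psmd9 and Psmg4). The letters TTCNNNGAA of a STAT site were present in 8.3% of all windows, in 1 inducible gene (Psmb8) and in 2 others. An NF-κB-like pattern (GGG and CC separated by 5 bases) was in 50.8% of all windows, in 3 of 5 inducible genes and in 19 of 35 others. The core TGACNNNGC of an antioxidant response element was in 12.4% of all windows, in none of the 5 inducible genes and in 6 of the 35 others (Psmb5, Psmb6, Psmc6, Psmd12, Psmd9 and Psme4). A CCAAT box was in 37.4% of all windows, in 1 of the 5 (Psmb9) and in 13 of the 35. A gene could match in any of its windows, and some motifs overlap; a match marks letters, not a bound site.

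The matches shown are the STAT letters of Psmb8, the interferon element of Psme1, and the antioxidant elements of the peptidase genes Psmb5 and Psmb6 and of the ATPase gene Psmc6. Each runs 5′ to 3′ in the direction of its gene, with the matched letters in capitals.
Psmb8, chr17:34198068-34198136, plus strand, STAT letters: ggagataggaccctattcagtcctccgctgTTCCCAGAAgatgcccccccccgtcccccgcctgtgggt
Psme1, chr14:55578493-55578522, plus strand, interferon element on the opposite strand: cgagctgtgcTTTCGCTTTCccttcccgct
Psmb5, chr14:54618004-54618072, minus strand, antioxidant element: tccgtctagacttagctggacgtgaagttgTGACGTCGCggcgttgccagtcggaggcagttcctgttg
Psmb6, chr11:70525318-70525356, plus strand, antioxidant element: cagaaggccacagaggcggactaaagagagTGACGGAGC
Psmc6, chr14:45329574-45329635, plus strand, antioxidant element on the opposite strand: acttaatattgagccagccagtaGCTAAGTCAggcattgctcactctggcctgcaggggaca
The Psmb8 letters begin 97 bases before the RefSeq start, and those of Psme1 9 bases after it. For both genes the RefSeq start and the printed stretch lie inside the GENCODE span given above, so neither stretch is upstream of that span. In Psmb5 the element begins 47 bases before the start, in Psmb6 9 and in Psmc6 227 bases before. Of the 6 carriers of the antioxidant letters, Psmb5 and Psmc6 fell, and Psmb6, Psmd12, Psmd9 and Psme4 were not called. The Psmc6 call was lost in 4 of 14 alternatives. Over all genes tested 18.0% fell, and 36% of those within the WT range of the constitutive core. The count is therefore not read as a result about the letters.

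Of 14 tested genes of interferon control 8 fell, 1 (Jak1) rose and 5 were not called, with a median of -0.44; after quantile normalization 9 fell and 1 rose. Over all genes tested 18.0% fell, and 36% of those within the WT range of the constitutive core. The receptor chain gene Ifnar2 (11.64, 11.63 and 11.62 against 10.60, 10.86 and 10.91) fell by 0.84 (adjusted p = 9.78e-05). The myeloid factor gene Irf8 (10.11, 9.97 and 10.10 against 9.23, 9.43 and 9.43) fell by 0.70 (adjusted p = 1.75e-04). Irf9, a subunit of the complex that acts downstream of type I interferon, read 10.61, 10.43 and 10.27 against 9.06, 9.63 and 9.44 and fell by 1.06 (adjusted p = 5.07e-04). Irf2, a relative of Irf1, read 10.11, 10.13 and 10.28 against 9.46, 9.72 and 9.57 and fell by 0.59 (adjusted p = 5.64e-04). Irf1, the factor best known for driving the inducible proteasome genes, read 9.19, 9.26 and 9.18 against 8.66, 8.63 and 8.83 and fell by 0.50 (adjusted p = 6.85e-04). All of these values were lower in 3 of 3 knockout libraries. Ifng itself was listed at 0 in all libraries. Nlrc5, the MHC class I activator, lay between 3.18 and 3.38 and was not called.

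Genes of MHC class I peptide supply and loading did not move one way: of 14, 5 fell and 4 rose, with a median of 0.06. After quantile normalization 4 fell and 7 rose. In the main fit 64.3% were called, against 33.0% of all genes tested. Within the WT range of the constitutive core, where not all of the 14 genes lie, it was 49.2%. Tapbpl, which edits bound peptides, read 9.89, 9.82 and 10.11 against 8.97, 9.14 and 9.27 and fell by 0.81 (adjusted p = 3.19e-04). The trimming enzyme gene Erap1 (9.99, 9.86 and 10.01 against 9.57, 9.74 and 9.57) fell by 0.33 (adjusted p = 0.00695). Of 5 class I heavy chain genes in the list 3 rose, H2-D1, H2-T23 and H2-Q7, while H2-K1 at 0.19 (adjusted p = 0.0677) and H2-Q4 at -0.01 (adjusted p = 0.849) were not called. H2-D1 read 14.65, 14.61 and 14.72 against 15.01, 15.07 and 14.99 and rose by 0.36 (adjusted p = 3.27e-04). H2-T23 (8.93, 8.73 and 8.68 against 9.35, 9.18 and 9.14) rose by 0.44 (adjusted p = 0.00404). H2-Q7 read 9.36, 8.81 and 9.17 against 9.33, 9.82 and 9.64. It rose by 0.48 (adjusted p = 0.0389), although its genotypes overlapped. Heavy chain genes resemble each other in sequence, and how reads were divided among them is uncertain.

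**Figure D4:**
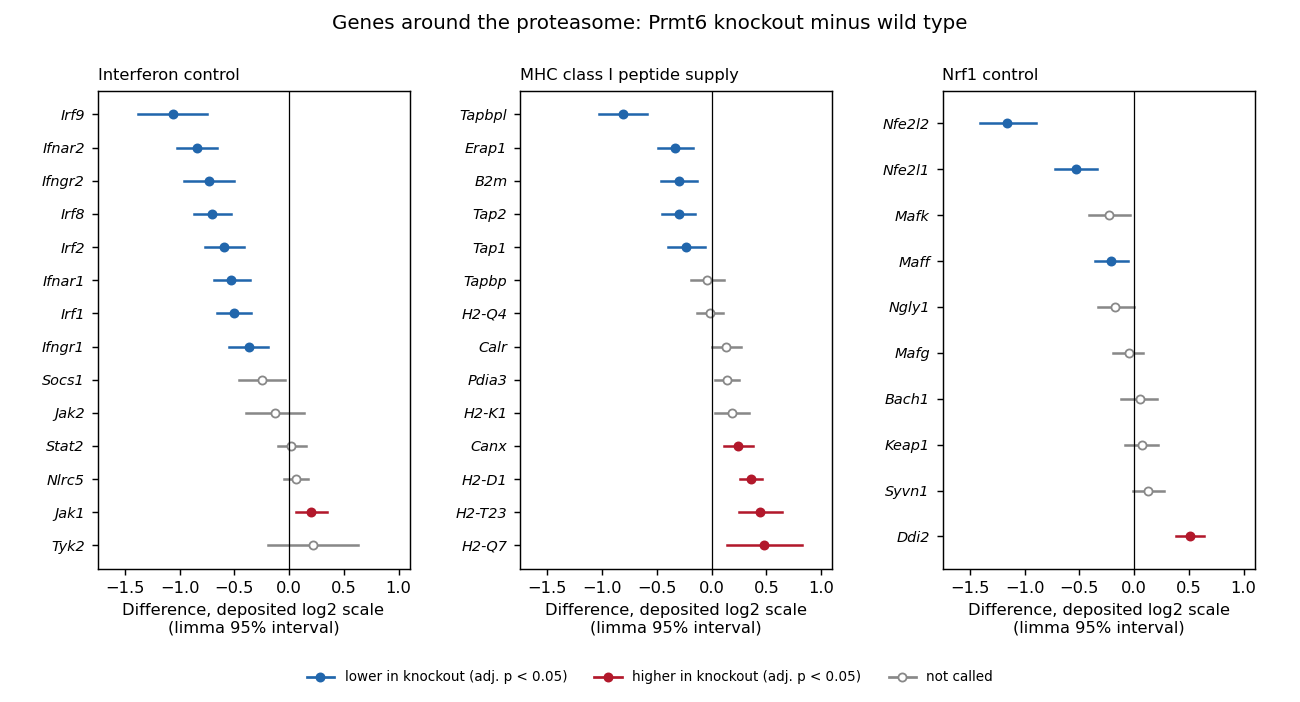
Difference Prmt6-/- minus WT on the deposited log2 scale (horizontal axis) for tested genes of interferon control, MHC class I peptide supply and Nrf1 control; points are the differences, bars limma 95% intervals, filled points were called. Interferon control genes lie mostly left of 0 (8 fell, 1 rose), the MHC class I list is spread to both sides (5 fell, 4 rose; 4 and 7 after quantile normalization), and Nfe2l2 at -1.16 is the lowest of the Nrf1 list.

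Nrf1 is made at the endoplasmic reticulum, deglycosylated, then cut by the protease Ddi2 when proteasome activity is short, and then drives proteasome genes together. Of 10 genes of that control 3 fell and 1 rose, with a median of -0.11, and after quantile normalization 3 fell and 2 rose. In the main fit 40% were called, against 33.0% of all genes tested. Within the WT range of the constitutive core, where not all of the 10 genes lie, it was 49.2%. Nfe2l1 read 11.41, 11.51 and 11.60 against 10.79, 11.07 and 11.06 and fell by 0.53 (adjusted p = 0.00151). Nfe2l2, whose product Nrf2 binds the same elements, read 11.46, 11.47 and 11.74 against 10.23, 10.33 and 10.64. It fell by 1.16 (adjusted p = 1.09e-04). The protease gene Ddi2 moved the other way, from 10.80, 10.96 and 10.83 to 11.40, 11.40 and 11.33, and rose by 0.51 (adjusted p = 2.55e-04). Maff, a small Maf partner gene, fell by 0.21 (adjusted p = 0.0378). The Maff call was lost in the authors' deposited table (0.0923) and without WT library 1 (0.0988) or 3 (0.092) or knockout library 1 (0.0866) or 2 (0.13).

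Among 19 partners of the proteasome outside the symbol rule 4 rose and 4 fell, with a median of 0.01. After quantile normalization 7 rose and 2 fell. In the main fit 42.1% were called. The share was 33.0% over all genes tested and 49.2% within the WT range of the constitutive core. Some genes of the list lie outside that range. AI314180, the mouse gene of the Ecm29 adaptor that ties the cap to the core, read 10.38, 10.22 and 10.37 against 11.32, 11.21 and 11.02. It rose by 0.86 (adjusted p = 1.03e-04), the largest difference of that list. Adrm1, a ubiquitin receptor of the cap, rose by 0.29 (12.28, 12.34 and 12.35 against 12.65, 12.60 and 12.59, adjusted p = 0.00133). The segregase gene Vcp rose by 0.20 (13.34, 13.37 and 13.39 against 13.61, 13.57 and 13.50, adjusted p = 0.00886). The cap-bound deubiquitinase gene Usp14 fell by 0.38 (11.86, 11.86 and 11.93 against 11.39, 11.51 and 11.60, adjusted p = 0.00154). So the 2 deubiquitinases of the cap that were called, Psmd14 and Usp14, were lower, while Uchl5, the third, was not called at -0.04.

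Genes of ubiquitin share its coding sequence, so the division of reads among them is uncertain. Ubb, a gene of tandem ubiquitin repeats, read 16.41, 16.53 and 16.66 against 15.94, 16.20 and 16.22 and fell by 0.41 (adjusted p = 0.00459). The ribosomal fusion gene Rps27a read 12.99, 12.98 and 12.96 against 12.77, 12.79 and 12.71. Rps27a fell by 0.22 (adjusted p = 0.00391), a call lost after quantile normalization (0.0935). Uba1 and Uba6, whose E1 enzymes activate ubiquitin, differed by 0.04 and 0.05 and were not called, though Uba1 passed as higher after quantile normalization (0.043).

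Lymphoid and dendritic cells hold much immunoproteasome, so their marker genes were read beside the inducible genes. Each list was summed on the linear scale and returned to log2. The 7 T cell markers summed to 6.94 to 6.99 in the WT and 6.96 to 7.01 in the Prmt6-/- libraries; within them Cd3d rose by 0.44 (adjusted p = 0.0012) and Lck fell by 0.28 (adjusted p = 0.00649). The 5 NK cell markers summed to 3.39 in the WT and to 3.38 to 3.43 in the Prmt6-/- libraries. Of 5 B cell markers Cd79b was the main source of the sum, 9.56 to 9.70 against 8.36 to 8.73. Cd79b read 9.54, 9.65 and 9.51 against 8.38, 8.24 and 8.63 and fell by 1.15 (adjusted p = 6.52e-05). The other 3 B cell markers tested were not called, and Pax5 had a mean under 1. Dendritic markers (6 genes) summed to 7.64 to 7.73 against 7.44 to 7.49, with Xcr1 and Zbtb46 called as lower and Cd209a under 1. Macrophage markers (5 genes) summed to 4.13 to 4.26 against 4.11 to 4.28, and neutrophil markers (6 genes) to 9.91 to 10.14 against 9.75 to 10.83, with Camp higher by 0.97 (adjusted p = 0.0281) and Mmp8 lower by 0.53 on the log2 scale (adjusted p = 0.0251). Stroma and endothelium markers (6 genes) summed to 11.37 to 11.64 against 11.01 to 11.26. Pecam1 was the main source of that sum (11.23, 11.14 and 11.47 against 10.67, 10.94 and 11.02) and fell by 0.41 (adjusted p = 0.018). Col1a1, Col1a2, Pdgfrb and Cxcl12 were not called, and Cdh5 had a mean under 1. Erythroid markers (7 genes) summed to 5.91 to 5.94 against 5.95 to 6.04, with Klf1 called as higher, and megakaryocyte markers (5 genes) to 5.72 to 5.79 against 5.78 to 5.81. The sums did not overlap between the genotypes for the B cell, dendritic, stroma and endothelium (all lower in the knockout) and erythroid lists (higher). Cd3e, Ncr1, Klrd1, Vsig4 and Mrc1 also had means under 1, and Gzma was listed at 0. The part of these markers in the lower inducible genes was not tested.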

How the data were processed

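The authors' deposited table holds log2 expression values of 6 libraries, with log2 fold changes and adjusted p-values of the authors' own test. Trim Galore, kallisto, HOMER and the build GRCm38 are listed in the submitters' processing notes, without versions; no source used here gives the annotation or strand setting. The kind of log2 transformation is not stated, and it draws low genes together. The table gives no counts, so the depth is unknown. Of 30038 rows, 1 (0.00333%) names no gene and was left out.

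Genes that reached a value of 1 in 3 or more libraries were fitted with limma 3.58.1 (R 4.3.3; two-sided moderated test with a mean-variance trend, Benjamini-Hochberg adjustment, no replicate block). No pseudocount was added. Calls use an adjusted p under 0.05; intervals are 95%. The fit was tested on simulated data.

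The members and gene lists were chosen with earlier results of these data known, so no list is independent evidence. Every member could be named; full statistics went to the 5 inducible genes, their counterparts and the 12 other called members with the smallest p, and each other list gave up to 4 genes with the smallest p. Alternatives were other filters, scalings, no trend, a replicate block, leaving out each library, and the authors' test. Protein identity of the catalytic pairs was not analysed here. Some genes of the interferon, ubiquitin and B cell lists are not reported here.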

Additional observations from a re-analysis of the deposited data

How the results depend on the processing

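Of the 21 called members 15 kept their call in all 14 alternatives, and none of the 21 reversed. Of the 30 that were not called 13 passed in some alternative. The count among the 5 inducible genes was 4 throughout. Quantile normalization gave 14 higher members and intensity-dependent centring 9, in place of 4, and 2 to 4 remained as each library was left out; quantile normalization also gave 11 called cap genes in place of 7. The assembly chaperones gave 1 call in place of 2 without a filter, after quantile normalization, with the replicate block and by the authors' test, and 1 to 2 as each library was left out. Over all genes the higher and lower calls were 2324 and 2778, and 2827 and 2378 after quantile normalization.

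Signs changed only for genes that were not called. After quantile normalization Psma3 stood at 0.01, Psmb6 at 0.01, Psmc4 at 0.07, Psmd13 at 0.04, Psmd4 at 0.02 and Psmg1 at 0.00; intensity-dependent centring put Psmc4 at 0.03 and Psmd13 at 0.01. Leaving out 1 library moved Psmb2 between -0.02 and 0.02, Psmc1 between -0.00 and 0.08, Psmc4 between -0.05 and 0.01, Psmd9 between -0.02 and 0.07 and Psmg2 between -0.01 and 0.03. The cause was not tested.

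Same-numbered libraries of the 2 genotypes deviated together with r = 0.095, 0.073 and 0.172 across genes, each library best with its own number, but the labels give no pairing. With the replicate number as a block 5074 genes and 22 members were called, against 5102 and 21. A pseudocount was not tried, since the values were already log2, and the protein comparison of the catalytic pairs was not run. Without counts, precision rests on 3 libraries a genotype.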
